A study of Arabidopsis thaliana with 4 samples.

Results

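The genes of the SCF ubiquitin ligase core and of the RUB pathway that modifies it were examined for the places where chromatin was recovered with probes against the long noncoding RNA APOLO. They were 7 genes of Arabidopsis thaliana out of 27444 nuclear protein-coding genes: ASK1 (AT1G75950), ASK2 (AT5G42190), CUL1 (AT4G02570), RBX1 (AT5G20570), AXR1 (AT1G05180), ECR1 (AT5G19180) and RCE1 (AT4G36800). Every peak of 4 deposited lists that touched the gene body, or 1 kb on either side of it, was taken. The set was selected on the fold enrichment of the ASK2 site in ODD 1 and EVEN 1, which was already known, and the other genes were chosen by function. The values of the ASK2 site are therefore a description and support nothing else.

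SCF complexes are ubiquitin ligases built on the cullin CUL1. One end of the cullin binds the RING protein RBX1, which brings in the ubiquitin-conjugating enzyme, and the other end binds an SKP1-like adaptor such as ASK1 or ASK2, which holds one of many exchangeable F-box proteins that choose the substrate. CUL1 is switched on by attachment of the ubiquitin-like protein RUB, which the AXR1 and ECR1 pair activates and RCE1 hands over. With the F-box auxin receptors TIR1 and AFB, this machinery removes the Aux/IAA repressors when auxin is present.

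ChIRP-seq recovers chromatin bound to an RNA by means of biotinylated antisense probes and sequences the DNA that comes with it. The ODD and EVEN probe sets were separate sets against APOLO, and LACZ probes, against a bacterial sequence, served as control. The libraries were ODD 1, ODD 2, EVEN 1 and LACZ 1. The labels describe all of them as Col-0 and give 1 growth and treatment text for all 4, with plants kept in long days on solid MS medium and lines that carry the full-length APOLO region under the constitutive 35S promoter. The control library had the same text as the others. The labels do not state for each library whether its plants carried the transgene. Whether the comparison held a library of plants without the transgene is therefore not known. Tissue, age and number of lines were not given in the sources used here. The ODD probes had 2 libraries, with nothing in the labels on whether these came from separate plants, and the EVEN and LACZ probes had 1 each. Replicates were not put to a test, because a site without a peak has no value in a list.

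There were 16126 nuclear peaks in ODD 1, 58146 in ODD 2, 20470 in EVEN 1 and 12546 in LACZ 1. Read totals were not used here. The lowest local background was 1.11 fragments in ODD 1, 6.55 in ODD 2, 2.81 in EVEN 1 and 6.23 in LACZ 1. The lowest summit pileup of any peak was 6 fragments in ODD 1, 14 in ODD 2, 9 in EVEN 1 and 15 in LACZ 1. The fold enrichment given for each peak is the authors' value, the summit pileup over the local background within 1 library. Folds and ranks are read within a list. Intervals are exact 95% Poisson intervals of the summit pileup carried to the fold, and cover counting error only.

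The 7 genes held 7 peaks in ODD 1, 24 in ODD 2, 10 in EVEN 1 and 4 in LACZ 1. An ODD 1 peak was present at 5 of 7 genes, where 48.9% of all nuclear protein-coding genes have one by the same rule, and an ODD 2 peak at 7 of 7, where 92.8% do. EVEN 1 had a peak at 5 of 7, against 55.3% of all genes, and LACZ 1 at 4 of 7, against 41.3%. None of these counts was tested, and with 7 genes a single gene moves the share widely. The genes differed among themselves in the height of their peaks and in which libraries shared a site. By gene body alone, the counts were 5 of 7 in ODD 1 (34.4% of all genes), 7 in ODD 2 (80.2%), 3 in EVEN 1 (41.6%) and 2 in LACZ 1 (29.4%).

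**Figure D1:**
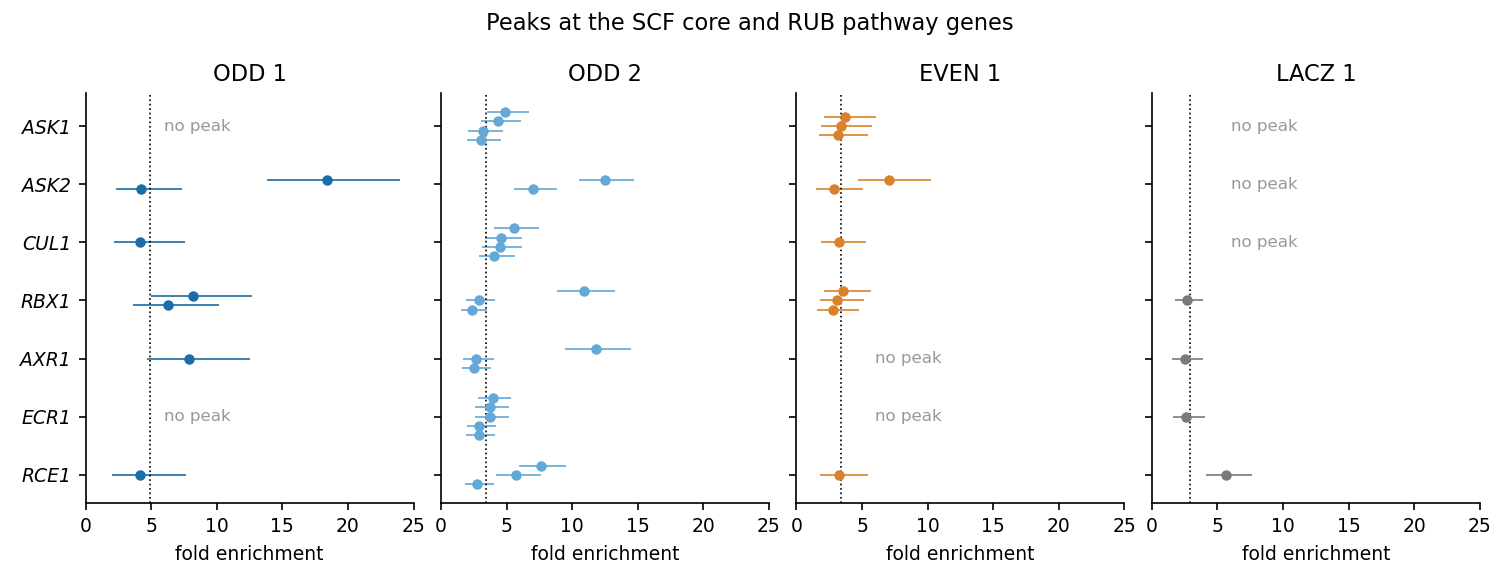
Fold enrichment (x axis, authors' value within each library) of every peak in the gene body or within 1 kb of the 7 genes (rows), with 1 panel per library. Bars are 95% counting intervals of the summit pileup and the dotted line is the median fold of the whole list. ASK2 holds the highest point in ODD 1 (18.4), ODD 2 (12.5) and EVEN 1 (7.09) and no peak in LACZ 1, where RCE1 has the highest (5.67).

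Within the 1 kb limit, the adaptor gene ASK2 had the strongest site of the set in each APOLO-probe library and no LACZ 1 peak. The ODD 1 peak lay at chr5:16856111-16856413 (TAIR10), 303 bp, with 53 fragments at its summit and a fold of 18.4 (13.9 to 23.9). The ODD 2 peak over it lay at chr5:16855986-16856460, with 138 fragments and a fold of 12.5 (10.5 to 14.7). The EVEN 1 peak at chr5:16856154-16856364 had 26 fragments and a fold of 7.09 (4.72 to 10.3). All 3 lie on top of one another, with the ODD 2 summit 78 bp and the EVEN 1 summit 13 bp from that of ODD 1, on the low-coordinate side.

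Within its own list the ASK2 site stood high in each APOLO-probe library, but not equally high. It ranked 27 by fold and 35 by q in ODD 1. In ODD 2 it ranked 539 by fold and 46 by q, which puts it in the top 0.927% by fold. In EVEN 1 it ranked 430 by fold, in the top 2.10%, and 634 by q. The place it takes thus depends on the library and on the measure. The EVEN 1 local background there, 2.81 fragments, was the lowest that occurs in that list, whereas the ODD 1 and ODD 2 backgrounds of 1.94 and 10.1 were above the lowest of their lists.

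Calling an ODD 1 peak that overlaps an EVEN 1 peak and no LACZ 1 peak a candidate region, there were 2786 such regions in all. The ASK2 site ranked 6 among them by ODD 1 fold and 136 by EVEN 1 fold. The nearest LACZ 1 peak, at chr5:16846205-16846523 with a fold of 2.63, lay 9588 bp away. That gap is wide but not rare, since 271 of the 2786 candidate regions (9.73%) lay at least as far from a LACZ 1 peak and the median gap was 2679 bp. Over all candidate regions, the median distance between the ODD 1 summit and that of the EVEN 1 peak was 37 bp, so the 13 bp at ASK2 was closer than usual and the 78 bp of ODD 2 farther than its median of 37 bp.

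The site lies outside genes, on the high-coordinate side of ASK2. ASK2 was the only gene within 1 kb of it. The next genes, the peroxidase gene PER64 on the low side and AT5G42200 on the high side, were both farther away. Strand, exons and untranslated regions were not told apart in the gene table, so whether the site is before or after the transcribed part of ASK2 is not stated.

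Weaker peaks lay inside the ASK2 body. The ODD 1 peak at chr5:16854915-16855039 had a fold of 4.24 (2.29 to 7.31) and the ODD 2 peak at chr5:16854833-16855041, which covers it, a fold of 7.03 (5.52 to 8.83). EVEN 1 had its body peak elsewhere, at chr5:16855319-16855481, with a fold of 2.89 (1.52 to 5.09), 280 bp from the ODD 1 peak. The 2 probe sets therefore met at the site beyond the gene and not inside it. In ODD 1 the intervals of the body peak and of the outer site did not overlap, and in ODD 2 they did not either, while in EVEN 1 they did.

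ASK1 encodes an adaptor that shares functions with ASK2 in Arabidopsis. ASK1 had no ODD 1 peak. In ODD 2 the body peak at chr1:28516774-28516897 had a fold of 3.18, and the EVEN 1 peak at chr1:28516807-28516909, which overlaps it, had a fold of 3.68. LACZ 1 had no peak at ASK1. The site in the gene body was thus seen with both probe sets, at folds close to the medians of the whole lists, 3.44 in ODD 2 and 3.41 in EVEN 1.

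The remaining peaks of ASK1 lay beside the gene. ODD 2 had a peak outside genes on the low-coordinate side, at chr1:28515926-28516126 with a fold of 4.37, and 2 in the neighbouring gene AT1G75960. Of those, the one at chr1:28518247-28518384 had a fold of 3.05, and the one at chr1:28518443-28519333, 891 bp wide, a fold of 4.90. EVEN 1 had 2 narrow peaks under that wide one, at chr1:28518485-28518546 with a fold of 3.41 and at chr1:28518850-28518956 with a fold of 3.15. Of the 4 ODD 2 and 3 EVEN 1 peaks counted for ASK1, 2 and 2 have their summit in AT1G75960 and could be assigned to either gene. The highest fold at ASK1 against that at ASK2 was 4.90 against 12.5 in ODD 2 and 3.68 against 7.09 in EVEN 1. In ODD 2 the counting intervals of those peaks were apart, while in EVEN 1 they overlapped.

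**Figure D2:**
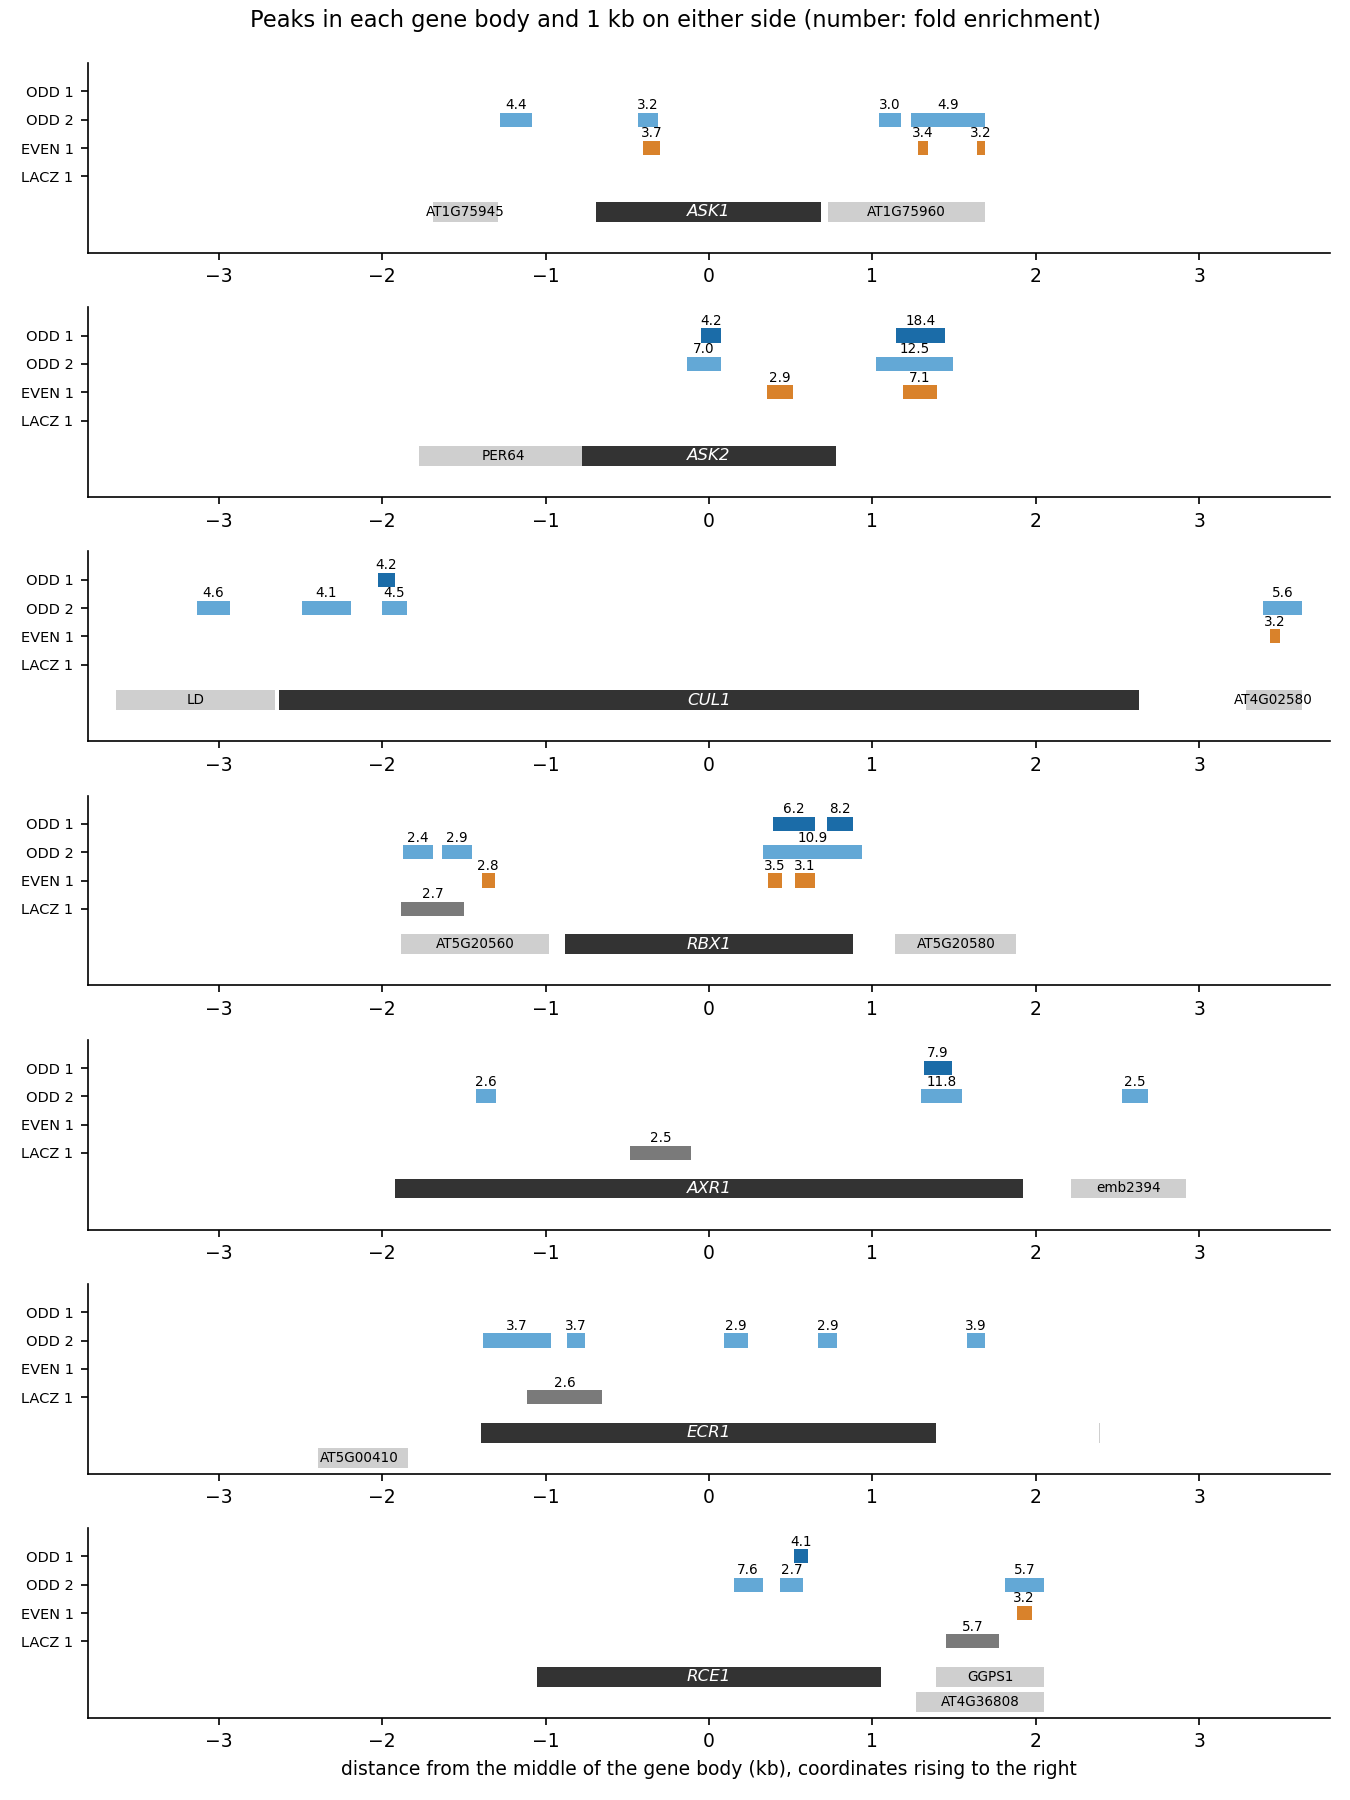
Peaks of each library (coloured bars, 1 row per library) over the 7 genes (black) and their neighbours (grey), drawn to scale against the distance from the middle of the gene body in kb and cut at 1 kb beyond it, with the fold of each peak above its bar. The ODD 1, ODD 2 and EVEN 1 peaks of ASK2 stack outside the gene, those of RBX1 stack inside it, and AXR1 has a site of both ODD libraries with no EVEN 1 peak.

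CUL1, the scaffold of the complex, had no LACZ 1 peak. Its ODD 1 and EVEN 1 peaks were below the medians of their lists, and its 4 ODD 2 peaks were above the ODD 2 median of 3.44. The ODD 1 peak at chr4:1129121-1129221 lay in the gene body with a fold of 4.18 (2.14 to 7.56), below the ODD 1 median of 4.93. ODD 2 had a body peak over it at chr4:1129146-1129295 with a fold of 4.47 and another at chr4:1128654-1128952 with 4.07. EVEN 1 had no peak there, and its nearest lay 3438 bp away from the ODD 1 peak. The APOLO-probe sets met instead near the other end of the window, where the EVEN 1 peak at chr4:1134580-1134642 (fold 3.23) lay under the ODD 2 peak at chr4:1134537-1134882 (fold 5.56). Both summits were in the neighbouring gene AT4G02580. A further ODD 2 peak at chr4:1128009-1128212, with a fold of 4.60, had its summit in LD, a gene of flowering time control on the opposite side.

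RBX1, the RING subunit, held the other candidate region of the set, inside its gene body. ODD 1 had 2 peaks there, at chr5:6957845-6958101 with a fold of 6.25 (3.60 to 10.2) and at chr5:6958181-6958335 with a fold of 8.17 (5.02 to 12.7). ODD 2 covered both with a single peak 609 bp wide, at chr5:6957786-6958394, with a fold of 10.9 (8.81 to 13.3) and rank 1501. EVEN 1 had peaks at chr5:6957818-6957901 with a fold of 3.54 (2.08 to 5.69) and at chr5:6957984-6958101 with 3.12 (1.77 to 5.18). Both EVEN 1 peaks overlapped the weaker of the ODD 1 peaks, and the stronger one began 80 bp beyond the nearer EVEN 1 peak. Among the 2786 candidate regions the RBX1 region ranked 1125 by ODD 1 fold and 1673 by EVEN 1 fold, in the middle of the list and far below ASK2.

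The LACZ 1 peak counted for RBX1 was not at that site. It lay at chr5:6955459-6955954 with a fold of 2.69, its summit in the neighbour AT5G20560 and beyond the 1 kb limit, 1891 bp from the candidate region. It overlapped the 2 weakest ODD 2 peaks of the window, at chr5:6955584-6955764 with a fold of 2.36 and at chr5:6955819-6956007 with 2.87. EVEN 1 had a peak in the same neighbour, at chr5:6956065-6956143 with a fold of 2.82, which did not touch the LACZ 1 peak.

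AXR1, a subunit of the RUB-activating enzyme, had a strong site in both ODD libraries, where EVEN 1 had no peak. The ODD 1 peak at chr1:1501347-1501522 had a fold of 7.87 (4.70 to 12.5) and rank 2319. The ODD 2 peak over it, at chr1:1501332-1501584, had a fold of 11.8 (9.48 to 14.5) and rank 846, in the top 1.45%. No EVEN 1 peak lay in the window, and the nearest was 7188 bp from the ODD 1 peak. A LACZ 1 peak with a fold of 2.49 lay in the gene body at chr1:1499552-1499921, 1426 bp from the ODD site and touching no APOLO-probe peak. The other ODD 2 peaks, at chr1:1498607-1498729 in the body and at chr1:1502560-1502717 in the neighbour emb2394, had folds of 2.65 and 2.51.

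ECR1, the partner of AXR1 in the same enzyme, had neither an ODD 1 nor an EVEN 1 peak. Its ODD 2 peaks lay around the list median of 3.44, with folds of 3.72 at chr5:6453259-6453671, 3.70 at chr5:6453773-6453883, 2.87 at chr5:6454730-6454876, 2.90 at chr5:6455311-6455423 and 3.94 at chr5:6456218-6456332. The first 4 had their summits in the gene body and the last outside genes. The LACZ 1 peak at chr5:6453524-6453988, with a fold of 2.63, overlapped the pair at the low-coordinate end. ECR1 thus had no site seen with both probe sets. Within the 1 kb limit, the AXR1 and ECR1 genes, whose products act as 1 enzyme, differed in their highest ODD 2 fold, 11.8 (9.48 to 14.5) against 3.94 (2.82 to 5.37). The size of that difference depends on the limit, since an ODD 2 peak with a fold of 7.76 lay 163 bp beyond it at ECR1.

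RCE1, the RUB-conjugating enzyme, had the strongest control peak of the set. The LACZ 1 peak at chr4:17343434-17343760 had 40 fragments and a fold of 5.67 (4.09 to 7.67), rank 452 of 12546, or the top 3.60%. Its summit was in the neighbouring genes GGPS1 and AT4G36808, which overlap each other, and it touched no APOLO-probe peak of the other libraries. Beside it, in the same neighbours, the EVEN 1 peak at chr4:17343868-17343958 had a fold of 3.23 and lay under the ODD 2 peak at chr4:17343798-17344581, 784 bp wide with a fold of 5.68, which runs past the window and there meets another LACZ 1 peak. Inside the RCE1 body, ODD 1 had a peak at chr4:17342507-17342588 with a fold of 4.11 (2.04 to 7.66), from 8 fragments. The ODD 2 peak over it, at chr4:17342421-17342557, had a fold of only 2.73, while the strongest ODD 2 peak of the gene, at chr4:17342134-17342311 with a fold of 7.60 (5.96 to 9.56), had no ODD 1 peak. The single ODD 1 peak thus coincided with the weakest of the ODD 2 peaks counted for RCE1.

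Ordered by its strongest peak, the set ran ASK2, RBX1, AXR1, CUL1 and RCE1 in ODD 1, and ASK2, AXR1, RBX1, RCE1, CUL1, ASK1 and ECR1 in ODD 2. In EVEN 1 the order was ASK2, ASK1, RBX1, CUL1 and RCE1, and in LACZ 1 it was RCE1, RBX1, ECR1 and AXR1. The counting intervals of neighbours in these orders overlapped except between ASK2 and RBX1 in ODD 1 and between RCE1 and RBX1 in LACZ 1. Within the 1 kb limit, then, ASK2 came first in each APOLO-probe library, and RCE1, which led the control list, came last or near the middle. The places in EVEN 1 depend on that limit. An EVEN 1 peak with a fold of 8.71, above the 7.09 of the ASK2 site, lay 164 bp beyond it near RCE1. The median fold of the peaks at the 7 genes was 6.25 in ODD 1, where the median of the whole list was 4.93, and 4.0 in ODD 2, where it was 3.44. In EVEN 1 it was 3.23 beside a list median of 3.41, and in LACZ 1 it was 2.66 beside 2.93. The ASK2 site, on which the set was selected, is counted in the medians of ODD 1, ODD 2 and EVEN 1.

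**Figure D3:**
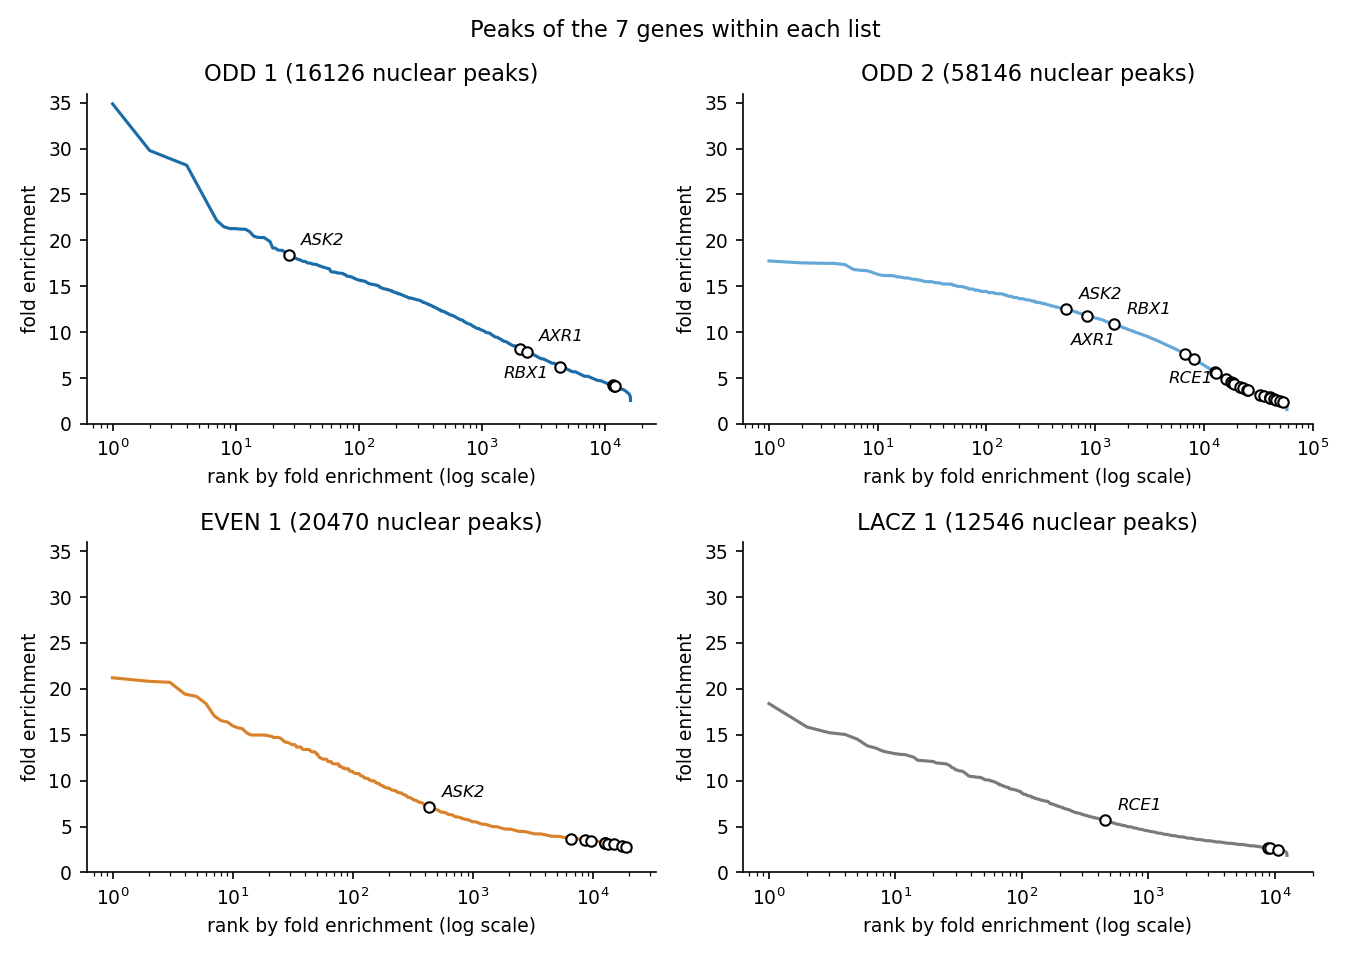
Fold enrichment (y axis) against rank by fold (x axis, log scale) for all nuclear peaks of each library (lines), with the peaks of the 7 genes as circles and the strongest labelled. The ASK2 site stands at rank 27 of 16126 in ODD 1, 539 of 58146 in ODD 2 and 430 of 20470 in EVEN 1, and the peak near RCE1 at 452 of 12546 in LACZ 1.

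Most sites in and around the 7 genes belonged to 1 library or 1 probe set, as did most sites at all protein-coding genes. Merging peaks that overlapped gave 26 sites, of which 10 (38.5%) were of ODD 2 alone, where 46.6% of the 58833 sites at all protein-coding genes were. A further 4 were shared by ODD 1 and ODD 2 alone (15.4% against 13.2% of all sites), 3 by ODD 2 and EVEN 1 (11.5% against 7.70%) and 2 by ODD 1, ODD 2 and EVEN 1 (7.69% against 4.42%). EVEN 1 alone had 2 sites (7.69% against 10.2%), LACZ 1 alone had 2 (7.69% against 6.59%), ODD 2 and LACZ 1 shared 2 (7.69% against 4.06%), and 1 joined ODD 2, EVEN 1 and LACZ 1 (3.85% against 2.35%). Sites of all 3 APOLO-probe libraries without the control were thus those of ASK2 and RBX1.

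The ODD 1 peaks of the set all recurred in ODD 2, 7 of 7, and 94.8% of the whole ODD 1 list did. An EVEN 1 peak overlapped 2 of the 7, beside 24.0% of the list, and a LACZ 1 peak overlapped 0 of 7, beside 13.4%. Of the 24 ODD 2 peaks, 6 overlapped ODD 1 (24.7% of the list), 6 overlapped EVEN 1 (19.1%) and 5 overlapped LACZ 1 (13.0%). Of the 10 EVEN 1 peaks, 8 overlapped ODD 2 (59.5% of the list), 3 overlapped ODD 1 (19.1%) and 0 overlapped LACZ 1 (18.6%). Of the 4 LACZ 1 peaks, 0 overlapped ODD 1 (15.6% of the list), 2 overlapped ODD 2 (56.0%) and 0 overlapped EVEN 1 (26.6%). The counts are small, and none was tested against the lists.

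A candidate region was present at 2 of 7 genes, ASK2 and RBX1, where 11.1% of all nuclear protein-coding genes have one, and both regions recurred in ODD 2. ASK2 was one reason for choosing the set, so this count is not evidence about the pathway. By the other ODD library, an ODD 2 peak that overlapped EVEN 1 and no LACZ 1 peak was found at 4 of 7 genes, ASK1, ASK2, CUL1 and RBX1, beside 31.9% of all genes. Peaks of ODD 1, ODD 2 and EVEN 1 anywhere in the window, with no LACZ 1 peak there, were present at ASK2 and CUL1, 2 of 7 genes beside 15.2% of all. An ODD 1 peak that overlapped ODD 2 and touched no EVEN 1 or LACZ 1 peak was found at 5 of 7, the genes ASK2, CUL1, RBX1, AXR1 and RCE1, beside 36.6% of all genes. With gene bodies alone, RBX1 kept its candidate region and ASK2 did not, so 1 of 7 genes had one (7.42% of all genes, or 7.28% where ODD 2 had to share it), and an ODD 2 peak with EVEN 1 and no LACZ 1 was left at 2 of 7 (22.5%). With −log10 q of at least 5 in every list, ASK2 alone had a candidate region, 1 of 7 genes beside 2.98% of all. ASK2 and RBX1, 2 of 7, had one with lists of equal length (7.43% of all genes), with no LACZ 1 peak within 500 bp (9.58%), with an overlap of 50% of the shorter peak (9.85%) and with windows of 2 kb (15.1%). Longer windows can hold more peaks. With all genes split into 4 classes of window width, 10.4% of the class of ASK1, ASK2 and RBX1 had a candidate region, beside 11.8% of that of ECR1 and RCE1 and 13.4% of that of CUL1 and AXR1, the widest.

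Of the peaks counted, 20 lay outside the gene body, and a further 15 lay between 1 and 2 kb. Just inside the limit were the EVEN 1 peaks near ASK1 (3.15) and RCE1 (3.23) and the ODD 2 peak near RBX1 (2.36). Just outside were an EVEN 1 peak near ASK2 at chr5:16853067-16853136 with a fold of 3.68 and an ODD 2 peak near ECR1 at chr5:6457196-6457459 with 7.76. The EVEN 1 peak at chr4:17344199-17344406 near RCE1, also just outside, had a fold of 8.71, which is above the 7.09 of the ASK2 site, and lay under the wide ODD 2 peak in GGPS1 and AT4G36808.

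The wider pathway was described with 7 lists of 58 other genes, chosen for their role. They had an ODD 1 peak at 34 of 58 genes, an ODD 2 peak at 56, an EVEN 1 peak at 34 and a LACZ 1 peak at 26. These are 58.6%, 96.6%, 58.6% and 44.8% of the lists, near the 48.9%, 92.8%, 55.3% and 41.3% of all genes. A candidate region was present at 5 of 58, or 8.62%, near the 11.1% of all genes. The 5 were ASK17, RUB3, CSN4, SGT1B and SKP2B.

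The other SKP1-like adaptor genes, 19 in number, had ODD 1 peaks at 8 (48.9% of all genes) and ODD 2 peaks at 18 (92.8%). They had EVEN 1 peaks at 10 (55.3%) and LACZ 1 peaks at 5 (41.3%). In none of the 3 APOLO-probe libraries did a peak of theirs reach the fold of the ASK2 site. That site was chosen for its height, and few peaks of any gene reach it. By fold it stood in the top 0.167% of ODD 1, 0.927% of ODD 2 and 2.10% of EVEN 1. Its lead is thus no result about the adaptor family. The highest ODD 1 fold was that of ASK17, 6.15 at chr2:8698637-8698791, which was also the candidate region of the family, with an EVEN 1 fold of 3.24 and an ODD 2 fold of 5.56 and its summit in the neighbour AT2G20150. ASK11 had no peak in any of the 4 lists.

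Of the other cullin and RING genes, 3 of 4 had a peak in ODD 1, 3 in ODD 2, 3 in EVEN 1 and 2 in LACZ 1, and 0 of 4 had a candidate region. The shares of all genes were 48.9%, 92.8%, 55.3% and 41.3% in the same order, and 11.1% for candidate regions, so 0 of 4 is no departure from them. CUL3A, CUL3B and CUL4, scaffolds of other ubiquitin ligases, each had, as AXR1 did, an ODD 1 peak that overlapped ODD 2 and no EVEN 1 or LACZ 1 peak, which 36.6% of all genes have. Near CUL3A its fold was 4.71, with an ODD 2 fold of 8.07. Near CUL3B the ODD 1 peak at chr1:26205250-26205430 had a fold of 9.48, with an ODD 2 fold of 12.9, and its summit lay in AT1G69680. In CUL4 the ODD 1 peak at chr5:18736193-18736340 had a fold of 9.43, with an ODD 2 fold of 12.5. Unlike AXR1, CUL3B and CUL4 had EVEN 1 peaks elsewhere in their windows, with highest folds of 4.31 and 4.99. With ODD 2 in place of ODD 1, CUL4 had a candidate region, as 31.9% of all genes do.

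The RUB proteins and their other enzymes had ODD 1 peaks at 2 of 5 genes (48.9% of all genes) and ODD 2 peaks at 5 (92.8%). They had EVEN 1 peaks at 2 (55.3%) and a LACZ 1 peak at 1 (41.3%). RUB3, which encodes a RUB protein, had the highest ODD 1 fold of the 58 genes, 12.7 at chr1:4045756-4045942, in the top 2.54% of the list, with its summit outside genes. The ODD 2 fold over it was 9.38. The EVEN 1 fold, 2.68, was below the median of that list, so this candidate region was high with the ODD probes and low with the EVEN probes.

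The COP9 signalosome takes RUB off cullins. Its 10 genes had ODD 1 peaks at 6 (48.9% of all genes) and ODD 2 peaks at 10 (92.8%). They had EVEN 1 peaks at 5 (55.3%) and LACZ 1 peaks at 7 (41.3%). CSN4 had the candidate region, in its body at chr5:17239776-17239900, with folds of 4.73 in ODD 1, 7.95 in ODD 2 and 4.59 in EVEN 1. The highest ODD 1 fold, 7.10 near CSN3 at chr5:4601329-4601508, had its summit in AT5G14260. The 3 assembly factor genes, CAND1, SGT1A and SGT1B, each had peaks in ODD 1, ODD 2 and EVEN 1, and 2 of them in LACZ 1. The shares of all genes were 48.9%, 92.8%, 55.3% and 41.3% in the same order, and with 3 genes the counts say little. CAND1, which exchanges the adaptor modules on CUL1, had the highest ODD 1 fold, 6.78 at chr2:690475-690615, with an ODD 2 fold of 12.7 and no EVEN 1 peak on it. That ODD 2 fold and the 12.9 near CUL3B were above the 12.5 of the ASK2 site in ODD 2. In SGT1B, a co-chaperone gene, the candidate region at chr4:6853388-6853556 had folds of 5.87 in ODD 1, 5.76 in ODD 2 and 3.45 in EVEN 1.

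All 6 TIR1 and AFB auxin receptor genes had peaks in both ODD libraries (48.9% of all genes in ODD 1 and 92.8% in ODD 2). EVEN 1 and LACZ 1 had peaks at 3 of 6 each (55.3% and 41.3% of all genes). A candidate region was present at 0 of 6, beside 11.1% of all genes. AFB4 had one when overlaps, those with LACZ 1 included, had to reach 50% of the shorter peak. That setting loosens the control rule. The AFB4 ODD 1 peak, with a fold of 4.86 and an EVEN 1 fold of 3.47, is touched by a LACZ 1 peak with a fold of 5.14. AFB2 had a candidate region when ODD 2 took the place of ODD 1. The highest ODD 1 fold was in AFB5, 9.23 at chr5:20334208-20334415 with an ODD 2 fold of 10.6, and no EVEN 1 or LACZ 1 peak lay in that window. Among 11 other F-box genes, ODD 1 had peaks at 6 (48.9% of all genes) and ODD 2 at 11 (92.8%). EVEN 1 had peaks at 8 (55.3%) and LACZ 1 at 6 (41.3%). SKP2B, an F-box gene of cell cycle control, had the candidate region, at chr1:28940984-28941063, with folds of 5.15 in ODD 1, 5.61 in ODD 2 and 6.06 in EVEN 1. MAX2, whose F-box protein acts in strigolactone signalling, had the highest ODD 1 fold, 7.57 at chr2:17757114-17757197, with 11.2 in ODD 2 and no EVEN 1 peak on it.

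**Figure D4:**
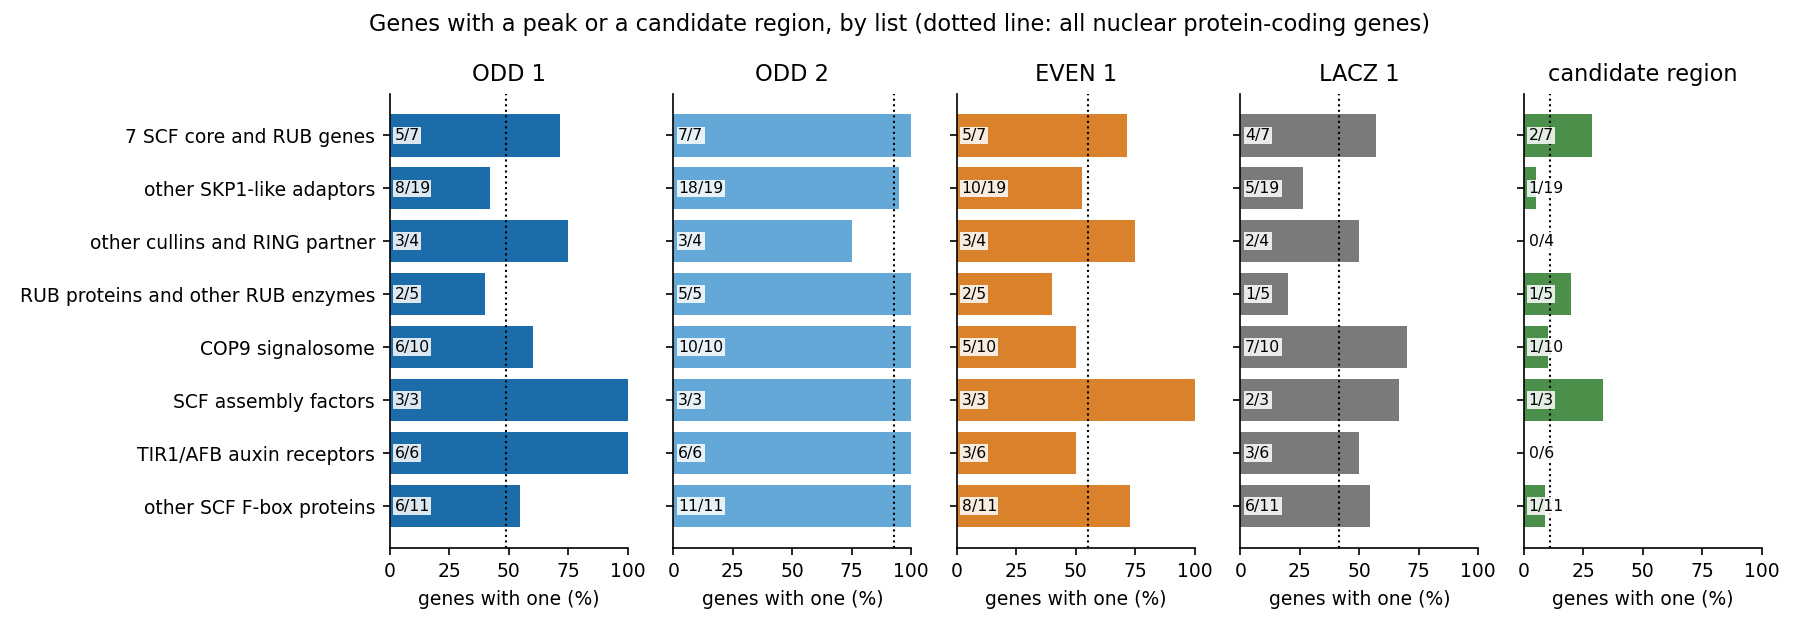
Share of genes (percent, bar length from 0) with a peak in each library and with a candidate region, for the 7 genes and the 7 lists of other pathway genes (rows, with counts), with the share of all nuclear protein-coding genes as a dotted line. Candidate regions were present at 2 of 7 genes of the set, at 5 of the 58 other genes and at 11.1% of all genes.

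The genes whose peaks were most like those of ASK2 were sought by the distance between the within-list percentiles, by fold, of the strongest peak in ODD 1, ODD 2 and EVEN 1. Of 4178 genes with a peak in all 3 and none in LACZ 1, 27 had their strongest peak in the top 5% of every list. The 5 nearest were AT3G42148 and AT3G42150, which share their peaks (folds of 15.6 in ODD 1, 14.3 in ODD 2 and 8.25 in EVEN 1), AT1G56670 (17.7, 11.9 and 9.04 in the same order of libraries), the fatty acid elongase gene KCS12 (14.2, 14.7 and 7.09) and AT1G20120 (16.1, 14.0 and 6.10). None of them belongs to the 65 genes of the SCF and RUB lists. Those 65 are a very small part of the 27444 nuclear protein-coding genes, so their absence says nothing about the pathway. The likeness is one of peak height only.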

How the data were processed

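Chromatin from ChIRP-seq libraries was represented by 1 peak list per library, called separately and not pooled. Per the submitters' processing notes, CASAVA 1.8.2, Trimmomatic, Bowtie2 and MACS2 were used with the TAIR10 build. For calling options, any control library and reads that match several places, the handling was not given in the sources used here. The deposited columns used were the peak's position and width in bp, the summit pileup (a signal in fragments), the fold enrichment (a ratio, with 1 added to pileup and background) and the −log10 p and −log10 q values, as named per the file headers.

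From these, with python 3.11.15, numpy 2.4.6, pandas 2.3.3 and matplotlib 3.10.9, the local background was recovered by adding 1 to the pileup, dividing by the fold and taking 1 away. Peaks on the nuclear chromosomes were assigned to a gene when they touched its body or 1 kb on either side, and peaks shared a site if 1 bp or more was common to them. These steps were tested on simulated lists. Gene bodies came from a RefSeq table of TAIR10.1, with no strand or exons, and its coordinates are not printed. How well it fits the files was checked with ODD 2 summits: the share within 200 bp of a gene edge was lowest, 13.3%, at a shift of 0 bp, among shifts up to 3000 bp in steps of 50 bp. All 65 listed loci were found in it. The table holds no sequence, so no sequence is printed.

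All 7 genes were named with every peak, and in each pathway list the genes with a candidate region and the gene of highest ODD 1 fold. CUL3A, CUL4, ASK11, SGT1A, AFB2 and AFB4 were added after their values were seen. The genes and lists were chosen with earlier results of these data known. Alternatives were other windows, a stricter q, lists of equal length, larger overlaps and leaving out either ODD library.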

Additional observations from a re-analysis of the deposited data

How the results depend on the processing

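Of 50 results under alternatives, 34 kept their value within 1.5 times, but these are not separate checks. Leaving out ODD 2 cannot change a candidate region, because its rule does not use ODD 2. The counts of genes with ODD 2 required repeat those without it under every setting. With −log10 q of at least 5, peaks were present at 3 genes in ODD 1, 1 in EVEN 1 and 1 in LACZ 1. The whole lists shrank as well, to 8197 peaks in ODD 1, 3545 in EVEN 1 and 4456 in LACZ 1. The genes with a candidate region then numbered 1 of 7 (ASK2), with or without ODD 2 required, and 2 of the 58 others. The share of all genes was 2.98%. The 2 were SKP2B and SGT1A. By the main rule SGT1A has no candidate region, because a LACZ 1 peak with a fold of 2.62 touches its ODD 1 peak. The stricter q drops weak LACZ 1 peaks too, so this setting also loosens the control rule. With gene bodies alone, EVEN 1 had peaks at 3 genes and LACZ 1 at 2, the genes with a candidate region numbered 1 (RBX1), again with or without ODD 2, and the ASK2 site dropped out, giving 0, because it lies outside the gene. With lists of equal length, ODD 2 had peaks at 4 genes. A candidate region was then present at 3 of the 58 other pathway genes, beside 7.43% of all genes. For the stricter q and for equal lengths, the share of all genes with a peak in each library was not computed. Whether the lower counts of genes with a peak are particular to the 7 genes is therefore not known. Leaving out 1 ODD library gave 2 to 4 genes with a candidate region and 5 to 20 of the 58 others. Of all genes, 11.1% have one without ODD 2, and 31.9% without ODD 1, when ODD 2 takes its place. With 1 left out, a site of both ODD libraries cannot be asked for. Its values of 2 to 4 repeat the same regions and are no separate check. The low values, without ODD 2, are the main result unchanged. The high values come from replacing ODD 1 by the longer ODD 2 list, which adds ASK1 and CUL1 to ASK2 and RBX1. An overlap of 50%, a distance of 500 bp from LACZ 1 peaks and a window of 2 kb each left ASK2 and RBX1.

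No paired analysis was possible because ODD, EVEN and LACZ share only replicate number 1 and a site without a peak has no value in a list. The planned motif search and comparison of the ASK1 and ASK2 proteins were not run, since they need sequences not used here. Weak ODD 1 peaks rest on as few as 6 fragments, and a missing peak does not show that a site was not recovered. The ODD 2 list puts a peak at 92.8% of all genes, so a peak in it alone says little about a gene. Folds cannot be set against each other between libraries, and the lists do not tell recovery through the RNA from direct binding of probes to DNA.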
